A study of Homo sapiens with 5 samples.

Results

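Core Mediator subunit genes were followed as a group of 7 genes, MED7, MED10, MED17, MED18, MED21, MED27 and MED30, in maps of RNA polymerase II (RNAPII). They were chosen by name from the study's table of transcription start sites (TSSs), where each has 1 TSS, and make up 7 of the 9767 genes and 7 of the 9787 TSSs with values in every library. Mediator is a multi-subunit coactivator that bridges DNA-bound transcription factors and RNAPII at promoters. Its head and middle modules contact the polymerase, its tail contacts activators, and a detachable kinase module, built around CDK8 or CDK19 with cyclin C, regulates its contact with the polymerase. The 7 genes encode subunits of the head (MED17, MED18, MED30), of the junction of head and tail (MED27) and of the middle (MED7, MED10, MED21).

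RNAPII was mapped by ChIP-seq of its largest subunit, RPB1, in RPE1 cells, a telomerase-immortalised human retinal pigment epithelial line. All groups carried an inducible Cas9 and lacked p53 and the puromycin resistance gene, and all were left untreated and harvested at 80 to 90% confluency. The groups were WT (3 libraries), CFAP20-KO (1 library), which lacks the cilia- and flagella-associated protein CFAP20, and CFAP20/CCNC-dKO (1 library), which lacks CFAP20 and CCNC, the gene of cyclin C in the Mediator kinase module. The labels do not say whether a knockout line was 1 clone, or whether the WT replicates were separate cultures, so the spread between WT libraries may be technical. Each immunoprecipitation of 28 µg chromatin received 40 ng of Drosophila chromatin, or 32.6 ng where the input was 22 µg (CFAP20/CCNC-dKO). The labels give the RPB1 antibody of WT a different supplier from that of both knockouts, under the catalogue number of the spike-in antibody. In comparisons with WT the antibody and the genotype thus cannot be told apart. Isolated stretches of coverage were also shorter in WT (145 bp) than in CFAP20-KO (298 bp) and CFAP20/CCNC-dKO (319 bp). This difference runs with genotype too, and its part in promoter, flank and peak values was not tested.

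RNAPII density, the spike-in normalised coverage within 5 kb of a TSS, was available for WT replicate 1, CFAP20-KO and CFAP20/CCNC-dKO. The WT library held 3384713 fragments over all TSS windows. CFAP20-KO reached 12.5% of that number and CFAP20/CCNC-dKO 17.5%. At the 7 member promoters this left between 48.1 and 118 fragments in WT, between 2.82 and 13.7 in CFAP20-KO and between 3.39 and 22.0 in CFAP20/CCNC-dKO. The values in brackets below are 95% counting intervals from these fragments. With 1 library per genotype there is no replicate check and no test between genotypes, and the intervals leave out the variation between cultures. Shares of all genes beyond a fold or counting limit were computed for the promoter window only. Member calls in other windows therefore have none beside them. CFAP20 and CCNC themselves were not found in the study's list of TSSs and were not analysed here, so the genotype labels were taken as given. Of 7 retinal pigment epithelium markers, 4 had an analysed TSS and 2 of these lay above the median promoter density of all TSSs. The same held for 2 of 2 analysed markers of epithelial and mesenchymal adherent cells, 1 of 2 neuron, 0 of 3 blood and 1 of 2 liver marker genes analysed, so these lists did not separate the cell types sharply.

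The promoter sequences of members are shown first because the members differ in the sequence in front of their start sites. Sequences are from RefSeq on GRCh38.p14, which held an entry for 5 members (none was used for MED21 and MED30). Printed is the stretch from base -250 before the RefSeq start up to the first base that lies in an annotated exon of a protein-coding gene. MED7 is not printed, because this stretch has only 56 bases there. Capitals mark exact matches, on either strand, to any of 8 motifs: the TATA box letters TATAAA, the NF-Y motif CCAAT, the GC box letters GGGCGG, the ETS core CCGGAA, the NRF1 core GCGCATGC, the YY1 core AAGATGGC, the cAMP response element TGACGTCA and the E-box CACGTG.
MED18, chr1:28328790-28329001, plus strand: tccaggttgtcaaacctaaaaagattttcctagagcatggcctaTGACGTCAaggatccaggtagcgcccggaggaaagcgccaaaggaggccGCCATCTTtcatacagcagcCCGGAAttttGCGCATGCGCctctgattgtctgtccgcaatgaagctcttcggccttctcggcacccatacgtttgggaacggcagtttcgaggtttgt
MED17, chr11:93784032-93784226, plus strand: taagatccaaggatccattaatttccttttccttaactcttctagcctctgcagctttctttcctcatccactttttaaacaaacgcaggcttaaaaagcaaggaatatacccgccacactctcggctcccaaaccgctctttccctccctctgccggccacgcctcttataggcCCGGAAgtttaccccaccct
MED10, chr5:6378572-6378797, minus strand: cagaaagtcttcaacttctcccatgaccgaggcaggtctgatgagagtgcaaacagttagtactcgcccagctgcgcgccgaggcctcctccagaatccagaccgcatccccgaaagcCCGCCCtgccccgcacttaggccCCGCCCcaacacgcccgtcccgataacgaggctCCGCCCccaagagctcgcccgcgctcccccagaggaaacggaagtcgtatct
MED27, chr9:132079868-132080117, minus strand: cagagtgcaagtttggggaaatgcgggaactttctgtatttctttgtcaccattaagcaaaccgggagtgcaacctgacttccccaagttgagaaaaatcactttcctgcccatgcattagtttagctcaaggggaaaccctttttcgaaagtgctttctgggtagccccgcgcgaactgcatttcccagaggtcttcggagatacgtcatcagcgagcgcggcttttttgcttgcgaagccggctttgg

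Within the whole 250 bases before the start, the MED18 promoter held the most matches, 6 in all. They were TGACGTCA, AAGATGGC on the reverse strand, CCGGAA at 2 places and GCGCATGC on both strands at overlapping positions. The MED17 promoter held CCGGAA at 2 places, the MED7 promoter the TATA box letters, the NF-Y motif and the ETS core once each, and the MED10 promoter 3 copies of GGGCGG on the reverse strand. At MED7 the TATA box letters lay at bases -250 to -245, the outer edge of the window. The RefSeq start of MED7 lies 320 bp after its listed TSS, so its whole window lies downstream of that TSS. None of the 8 motifs was found in the MED27 window. CCGGAA was present in 3 of the 5 members and in 14.5% of all 35116 RefSeq promoters, while GCGCATGC was present in 2.63%, AAGATGGC in 1.36% and TGACGTCA in 1.65% of them. The shares of the others were 10.7% for TATAAA, 32.0% for CCAAT, 42.6% for GGGCGG and 6.34% for CACGTG, which no member held. The members also differed in base composition, from 44.8% G and C at MED7 to 64.4% at MED10, beside a median of 58.0% over all promoters. A match is a run of letters and says nothing about binding.

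In WT the members differed in promoter density, defined as the mean from -200 to 500 bp around the listed TSS. MED17 was highest (2.15, 1.78 to 2.57), followed by MED7 (1.73), MED21 (1.63), MED18 (1.36), MED10 (1.34), MED30 (0.974) and MED27 (0.873, 0.644 to 1.16). No neighbours in this order differed beyond counting error. All members lay above the WT median over all TSSs of 0.407, and their percentiles ran from 71.3 (MED27) to 92.0 (MED17). In both knockouts MED17 was again the highest member (2.07 and 2.17) and MED30 the lowest (0.427 and 0.335). In those libraries, too, no neighbours in the order differed beyond counting error.

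**Figure D1:**
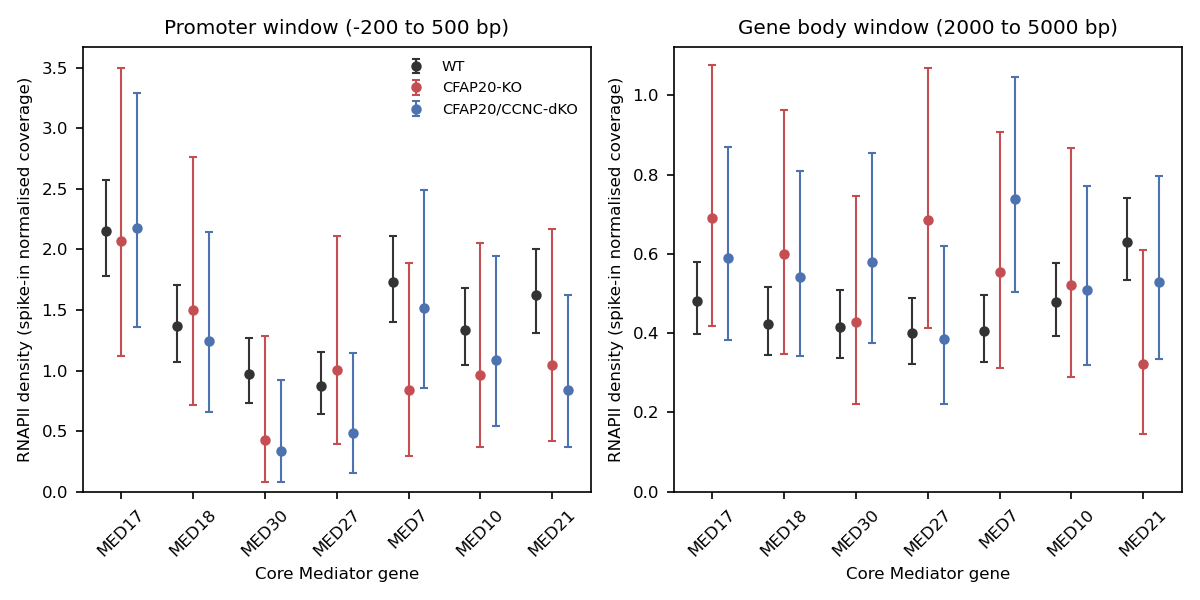
RNAPII density (spike-in normalised coverage, vertical axis) of the 7 core Mediator genes in the promoter window (left) and the gene body window (right). Points are single libraries of WT, CFAP20-KO and CFAP20/CCNC-dKO and bars are 95% counting intervals. The intervals of the knockouts are wide and overlap those of WT at every promoter.

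The head subunit MED17, a scaffold of the head module, had the highest promoter density of the group in all 3 libraries. Its TSS was listed at chromosome 11, position 93784227 on the plus strand, 55 bp before the start of the canonical transcript of GENCODE 44, and the gene body window was intronic except for 167 bp. Promoter density was 2.15 in WT (118 fragments), 2.07 for CFAP20-KO (13.7 fragments) and 2.17 for CFAP20/CCNC-dKO (22.0 fragments). The ratio to WT was 0.964 (0.508 to 1.69) in CFAP20-KO and 1.01 (0.611 to 1.60) in CFAP20/CCNC-dKO. These are the ratios closest to 1 among the members. Over the whole 10 kb, MED17 was 1.30-fold WT (1.002 to 1.67) in CFAP20-KO, above WT by more than counting error, with an interval that includes the median of 1.08 over the TSSs above the median promoter density, and 1.00-fold (0.788 to 1.27) in CFAP20/CCNC-dKO. TAF1D, a gene for a factor of RNA polymerase I, starts 164 bp downstream of the listed MED17 TSS on the opposite strand. Polymerase on the 2 genes cannot be told apart in this window. The highest 210-bp stretch lay at -80 bp in WT, at -130 bp in CFAP20-KO and at 160 bp in CFAP20/CCNC-dKO. Density just upstream of the TSS (-500 to -10 bp) relative to just downstream (0 to 490 bp) was 1.13 in WT, 2.04 (0.752 to 6.20) in CFAP20-KO and 0.667 (0.279 to 1.53) in CFAP20/CCNC-dKO, with overlapping intervals in the knockouts.

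MED18, which forms a movable part of the head together with MED20, had promoter ratios to WT near 1 in both knockouts, with wide intervals. Its TSS (chromosome 1, 28329038, plus strand) lay 2 bp from the canonical start. Promoter density was 1.36 in WT (75.1 fragments), 1.495 for CFAP20-KO (9.86) and 1.24 for CFAP20/CCNC-dKO (12.6). The ratio to WT was 1.10 (0.503 to 2.14) and 0.913 (0.459 to 1.67). Its body window, wholly intronic, had 0.424 in WT, 0.599 for CFAP20-KO and 0.540 for CFAP20/CCNC-dKO, and neither knockout differed from WT beyond counting error. Summed over the whole 10 kb, MED18 was 1.24-fold WT (0.984 to 1.54) in CFAP20/CCNC-dKO.

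MED30, a head subunit of animal Mediator, was the member with the lowest promoter values relative to WT. Its TSS (chromosome 8, 117520713, plus strand) is the canonical start and the body window was intronic. Promoter density was 0.974 in WT (53.7 fragments), 0.427 for CFAP20-KO (2.82 fragments) and 0.335 for CFAP20/CCNC-dKO (3.39 fragments). The ratio to WT was 0.439 (0.0819 to 1.39) and 0.344 (0.0778 to 1.002), so neither interval excludes an equal density. In WT the promoter stood 2.93-fold above its own flank (2000 to 4500 bp on both sides), and the highest stretch lay at 140 bp. In CFAP20-KO the promoter stood 1.12-fold and in CFAP20/CCNC-dKO 0.677-fold relative to the flank, and the highest stretch lay at 1700 bp and 630 bp. No promoter peak was thus detectable at this depth in either knockout. In the 500 bp after the TSS, the ratio of CFAP20/CCNC-dKO to WT was 0.208 (0.0152 to 0.931) from 1.54 against 40.3 fragments, the only such window of the group whose interval excluded 1. That interval includes 0.828, the median ratio over the TSSs above the median promoter density. The MED30 body had a density of 0.416 in WT, 0.427 for CFAP20-KO and 0.579 for CFAP20/CCNC-dKO, with ratios of 1.03 (0.512 to 1.88) and 1.39 (0.857 to 2.18).

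MED27, at the junction of head and tail, had the lowest WT promoter density of the group and differed most between the knockouts in the downward direction. Its TSS (chromosome 9, 132079909, minus strand) lay 42 bp before the canonical start of a gene of 219802 bp in the authors' table. Promoter density was 0.873 in WT (48.1 fragments), 1.01 for CFAP20-KO (6.64) and 0.487 for CFAP20/CCNC-dKO (4.92). The ratio of CFAP20/CCNC-dKO to CFAP20-KO was 0.483 (0.118 to 1.82) at the promoter and 0.560 (0.272 to 1.14) in the body. Neither window reached beyond counting error. Over the whole 10 kb, which holds more fragments (53.1 and 52.1), the ratio was 0.639 (0.428 to 0.955). This interval excludes 1 but includes 0.893, the median ratio over the TSSs above the median promoter density. Against WT, the same 10 kb was 1.37-fold (1.004 to 1.83) in CFAP20-KO, beyond counting error but with the median of 1.08 inside the interval, and 0.875-fold (0.640 to 1.18) in CFAP20/CCNC-dKO. The flanks moved in the same direction: 1.68 times the library median in CFAP20-KO, 0.944 times in CFAP20/CCNC-dKO and 0.992 times in WT, so the lower value was not confined to the promoter.

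Among the middle subunits, MED7, which pairs with MED21 in the hinge of the middle module, had its listed TSS (chromosome 5, 157143185, minus strand) 320 bp before the canonical start at 157142865. A transcript of HAVCR2 starts on the same strand, 316 bp after the listed TSS, so the signal cannot be assigned to MED7 alone. In WT the highest stretch lay at -340 bp (2.60) with a second rise on the other side of the TSS, as the profiles by gene show. In CFAP20-KO the highest stretch lay at -330 bp (1.90), and in CFAP20/CCNC-dKO at 410 bp (1.77). Promoter density was 1.73 in WT (95.2 fragments), 0.842 for CFAP20-KO (5.55) and 1.52 for CFAP20/CCNC-dKO (15.3). The ratio to WT was 0.487 (0.166 to 1.13) in CFAP20-KO and 0.878 (0.476 to 1.51) in CFAP20/CCNC-dKO. The CFAP20/CCNC-dKO value was 1.80-fold that of CFAP20-KO (0.648 to 5.92), within counting error. The body of MED7, in which 1264 of 3001 bp are exonic, was 1.82-fold higher in CFAP20/CCNC-dKO than in WT (1.18 to 2.75; 0.739 against 0.405). This was the only member body above WT by more than counting error. The share of all genes with such a body was not computed. In CFAP20-KO it had 0.554, 1.37-fold WT (0.743 to 2.35).

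**Figure D2:**
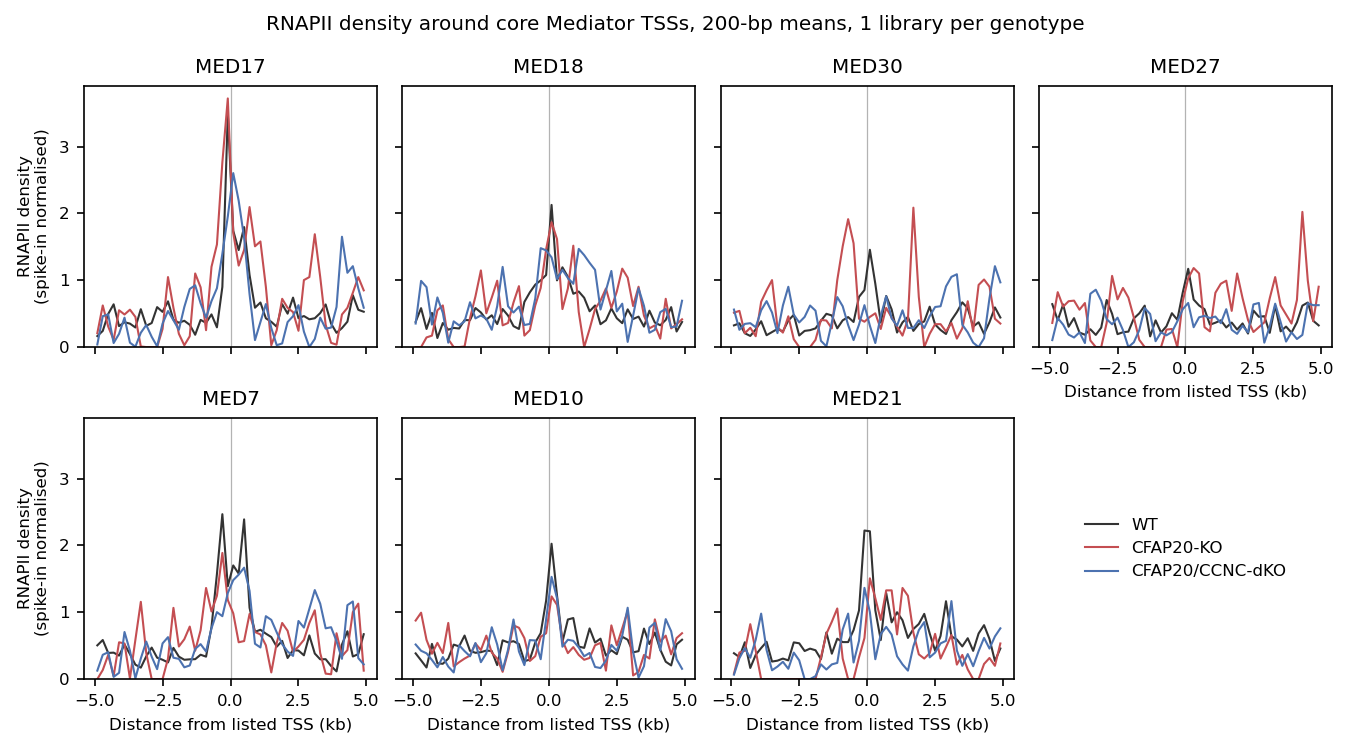
RNAPII density (spike-in normalised coverage, 200-bp means, vertical axis) against the distance from the listed TSS (kb, in the direction of transcription) for each of the 7 genes, with 1 line per library. MED17 peaks in all 3 libraries and MED30 peaks at its TSS in WT only, where its promoter holds 53.7 fragments against 2.82 and 3.39 in the knockouts.

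MED10, a middle subunit, had promoter values below WT in both knockouts, within counting error. Its TSS (chromosome 5, 6378595, minus strand) lay 48 bp before the canonical start, with the start of an uncharacterised noncoding RNA, ENSG00000287031, 79 bp upstream on the opposite strand. Promoter density was 1.34 in WT (73.6 fragments), 0.964 for CFAP20-KO (6.36) and 1.08 for CFAP20/CCNC-dKO (11.0). The ratio to WT was 0.722 (0.266 to 1.61) and 0.812 (0.388 to 1.54). In WT the upstream side held 0.616 times the density of the downstream side (0.389 to 0.963), and MED10 was the only member with an interval below 1 there. The body density was 0.478 in WT, 0.522 for CFAP20-KO and 0.509 for CFAP20/CCNC-dKO, the most even of the group. MED10 also had the highest nascent RNA signal of the members, 25.8 on the scale of the authors' WT BrU-seq gene body value, against a median of 0.590 over 6306 genes. The other members had 13.6 (MED18), 12.8 (MED21), 8.10 (MED7), 5.57 (MED17), 0.835 (MED30) and 0.636 (MED27). MED30 and MED27, the lowest in WT promoter density, thus also had the lowest nascent RNA values. Among the remaining members the orders differed: MED17 had the highest density but the lowest nascent RNA value, and MED10 the lowest density but the highest value.

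MED21, the middle subunit that partners MED7, was below WT in both knockouts over its whole window. Its TSS (chromosome 12, 27022550, plus strand) lay 8 bp before the canonical start. Promoter density was 1.63 in WT (89.7 fragments), 1.05 for CFAP20-KO (6.89) and 0.837 for CFAP20/CCNC-dKO (8.47). The ratio to WT was 0.642 (0.249 to 1.39) and 0.514 (0.221 to 1.04). Its body density of 0.630 was the highest of the members in WT, above the next, MED17, by 1.31-fold (1.02 to 1.69), and the lowest in CFAP20-KO (0.321). The body ratio of CFAP20-KO to WT was 0.509 (0.228 to 0.994), the only member body below WT by more than counting error. That of CFAP20/CCNC-dKO was 0.840 (0.515 to 1.31). As at MED7, the share of all genes with such a body was not computed. Over the whole 10 kb the ratio was 0.660 (0.467 to 0.911) and 0.688 (0.522 to 0.893). The surroundings moved with it: at 27 other TSSs within 5 Mb the median flank, in units of each library's own median, was 1.46 (WT), 1.08 (CFAP20-KO) and 0.959 (CFAP20/CCNC-dKO). The part of this regional difference in the MED21 result was not tested. At the other 6 members this regional flank ranged from 0.902 to 1.14 in WT, from 0.794 to 1.19 in CFAP20-KO and from 0.844 to 1.27 in CFAP20/CCNC-dKO.

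Summed over the 7 promoters, the mean RNAPII density was 1.44 in WT, 1.12 for CFAP20-KO and 1.10 for CFAP20/CCNC-dKO. The CFAP20-KO sum was 0.781 times WT (0.576 to 1.04; 51.8 against 554 fragments), with 5 of 7 members below WT. This interval lies below 1.10, the median ratio of the 4893 TSSs above the median promoter density, but it included that median when MED7 (0.843, 0.609 to 1.14) or MED21 (0.808, 0.581 to 1.10, just reaching it) was left out. The median is taken over ratios of single TSSs, while the sum gives dense members more weight. The interval also leaves out the spread between genes. The choice of baseline bears on this comparison as well. Over all 9767 genes, with 1 TSS per gene, the median log2 ratio was -0.03. The sum, at -0.36 on this scale, did not differ from that median by more than counting error. The CFAP20/CCNC-dKO sum was 0.764 times WT (0.595 to 0.970), with 6 of 7 members below WT. That interval excludes an equal density but includes the median ratio of all these TSSs, 0.845, and without MED21 it included 1 (0.812, 0.622 to 1.05). With that median, most of these TSSs lay below WT as well. Between the knockouts the sum was nearly equal, 0.978 (0.679 to 1.42), beside a median ratio of 0.757 over all these TSSs. Beside the counts of members below WT, the share of all these TSSs below WT was not computed. The comparisons with WT share the WT library, and those of CFAP20/CCNC-dKO share that library.

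No single member had a promoter ratio beyond counting error in any comparison. Counted by size instead, relative to the median ratio, 4 of 7 member promoters (MED7, MED10, MED21 and MED30) lay at least 1.5-fold lower with CFAP20-KO than with WT, beside 16.6% of 4891 genes with a promoter above the median density, and 0 were at least 1.5-fold higher, beside 15.7%. MED10 lay at the limit, 0.59 below the median on the log2 scale, and with the median of all TSSs as the baseline the count was 3. The interval of 0 members lay below the median ratio, beside 2.51% of genes, and of 0 above it, beside 2.51%. In CFAP20/CCNC-dKO against WT, MED21 and MED30 were at least 1.5-fold lower, 2 of 7 beside 16.6%, and 0 were higher beside 18.8%. No member interval lay below the median ratio (5.05% of genes) or above it (4.01%). In CFAP20/CCNC-dKO against CFAP20-KO, MED27 was at least 1.5-fold lower, 1 of 7 beside 17.5%, and MED7 higher, 1 of 7 beside 20.9%, with no member interval below (1.82%) or above (1.17%) the median. MED27 lay at the limit there, 0.59 below the median on the log2 scale. When each coverage step is counted as its own fragment, the interval excluded 1 at MED7 in CFAP20-KO against WT (0.240 to 0.889), and at MED21 (0.293 to 0.848) and MED30 (0.132 to 0.741) in CFAP20/CCNC-dKO against WT. Most isolated fragments were 2 steps high, so that count would treat the 2 ends of a fragment as independent.

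**Figure D3:**
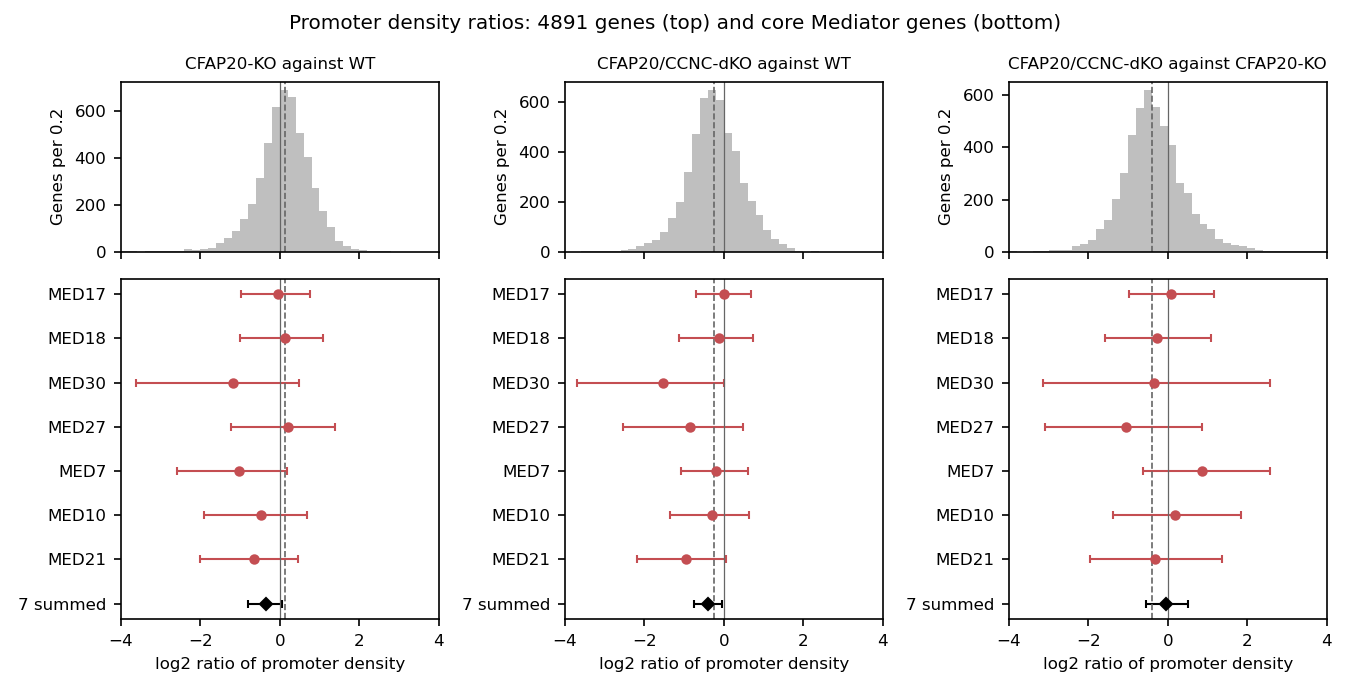
Log2 ratios of promoter density (horizontal axis) for the 3 comparisons. The upper panels show the number of genes per 0.2 among 4891 genes, and the lower panels each member (red) and the sum of the 7 members (black) with 95% counting intervals. The solid line marks no change and the dashed line the median of the TSSs above the median density. Each member interval crosses the solid line, and the sum lies left of it in both comparisons with WT.

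In the gene bodies, by contrast, the summed density lay above WT in both knockouts, but by no more than counting error relative to the median of all well-covered TSSs. The mean density from 2000 to 5000 bp was 0.462 in WT, 0.543 for CFAP20-KO and 0.553 for CFAP20/CCNC-dKO. The sum was 1.17-fold WT (0.949 to 1.44) in CFAP20-KO, with 6 of 7 members above WT, and 1.20-fold WT (1.005 to 1.42) in CFAP20/CCNC-dKO, with 5 of 7 above. The medians over all TSSs above the median promoter density were 1.06 and 1.02, so most of these TSSs lay above WT too. Both intervals include these medians. The second interval only just excludes 1, and without MED7 (1.11, 0.913 to 1.33) or MED17 (1.19, 0.986 to 1.43) it included 1. Without MED21, the CFAP20-KO sum was 1.34-fold WT (1.07 to 1.66), which excludes 1 and just excludes the median of 1.06. The member promoters stood 3.11-fold above the member bodies in WT, 2.07-fold in CFAP20-KO and 1.98-fold for CFAP20/CCNC-dKO. Relative to WT, this promoter to gene body ratio was 0.666 (0.469 to 0.944) in CFAP20-KO, beside a median of 1.04 over all these TSSs, and 0.639 (0.477 to 0.854) in CFAP20/CCNC-dKO, beside 0.836. Between the knockouts it was 0.959 (0.626 to 1.47), beside 0.801. It was lower than in WT in 6 of 7 members in CFAP20-KO, with MED21 the exception, and in 7 of 7 in CFAP20/CCNC-dKO. The share of all these TSSs on the same side of WT was not computed, here or for the body counts above. In CFAP20/CCNC-dKO the interval includes the median of 0.836, and with that median most of these TSSs were lower than in WT too. Without MED7 the CFAP20-KO value was 0.735 (0.506 to 1.07), so that the interval included both 1 and the median.

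The 3 WT libraries show how far such values move without a change of genotype. They could be read at 5 members (MED17, MED18, MED21, MED27 and MED30), which lie within 100 kb of a replication origin in the authors' origin files, where the bins are 200 bp wide. At MED17 and MED21 the origin centre was found by matching the profile of WT replicate 1 in both files (r = 0.988 and 0.983). The promoter over flank density (-200 to 600 bp over 2000 to 4500 bp on both sides) needs no scaling between libraries. No counting interval was computed for it, and the knockout promoters of these members hold few fragments (2.82 to 22.0 from -200 to 500 bp). Where a knockout value lies outside the WT range, the part of counting error in this was not tested. MED17 had 4.15, 4.40 and 8.23 in WT replicates 1, 2 and 3, beside 3.98 in CFAP20-KO, below the lowest WT value, and 5.35 for CFAP20/CCNC-dKO. Its promoter over body density was 2.77 and 3.44 in the knockouts, both below the 3 WT values, which ran from 3.60 to 5.47. MED18 had 3.67, 2.70 and 4.33, beside 2.44 and 2.41, which both lie below the 3 WT values. MED30 had 2.44, 2.39 and 1.25, beside 1.07 and 0.773, again below all 3, but WT replicate 3 was closer to the knockouts than to the other WT libraries. MED27 had 2.13, 1.01 and 3.50, a wider range than any genotype difference there, beside 1.40 and 1.37. MED21 had 2.79, 1.68 and 2.84, beside 5.20 in CFAP20-KO, above all 3, where the flank was low, and 2.01 in CFAP20/CCNC-dKO, within them.

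**Figure D4:**
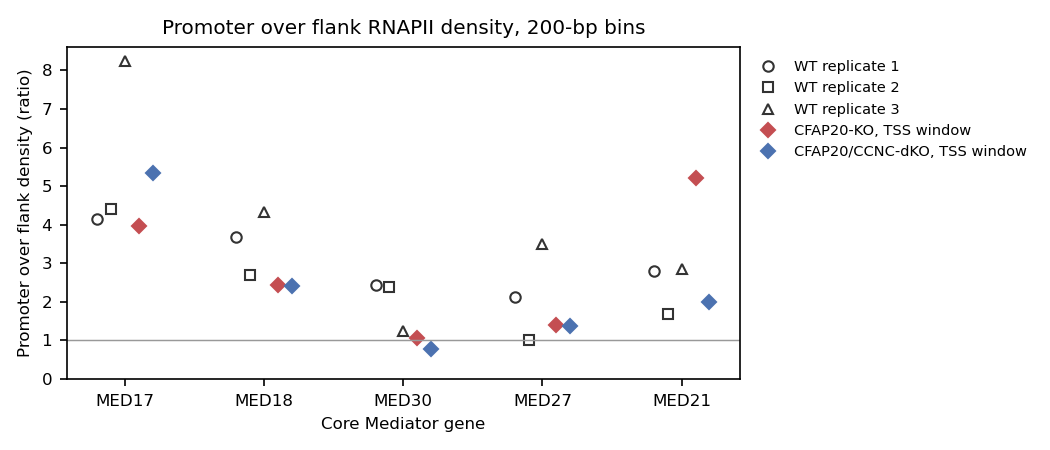
Promoter over flank RNAPII density (ratio, vertical axis, 200-bp bins) of the 5 core Mediator genes inside origin windows. Open symbols are the 3 WT replicates from the origin files and filled diamonds the knockout libraries from the TSS files in the same bins. The WT replicates of MED27 span 1.01 to 3.50, a range that holds both knockout values.

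Summed over these 5 members, the promoter over flank density was 3.07, 2.33 and 3.94 in the WT replicates, a mean of 3.11 ± 0.801 (SD, n = 3). WT replicate 1 gave 3.11 when read from its TSS file in the same bins. The CFAP20-KO value of 2.51 lay within this range and the CFAP20/CCNC-dKO value of 2.31 just under its lowest member. The promoter to body ratio of the same members was 2.77, 2.09 and 3.05 (2.64 ± 0.495, SD, n = 3) in WT, beside 2.04 in CFAP20-KO and 1.92 for CFAP20/CCNC-dKO, both below the lowest WT value by less than 1 SD. The replicates differed in the same order over all 1206 TSSs read this way, with medians of 2.93, 2.17 and 3.32 for replicates 1, 2 and 3. MED17 and MED30 did not follow this order, since replicate 1 was lowest at MED17 and replicate 3 at MED30. The depth of the origin files is unknown, and no interval is given for them or for the knockout values beside them. For promoter over body density, the medians of well-covered TSSs in the TSS files were 2.28 (WT), 2.34 (CFAP20-KO) and 1.86 (CFAP20/CCNC-dKO). The part of this library-wide difference in the member values was not tested.

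Other genes of the transcription machinery were read from lists in the same way. The other 19 core Mediator genes and 7 kinase module genes were not found in the study's list of TSSs, by name or identifier, and so were not analysed here. Of RNAPII subunit genes 2 of 12 were analysed, and 0 promoters were at least 1.5-fold lower or higher in CFAP20-KO than in WT (median log2 ratio 0.17); in CFAP20/CCNC-dKO 1 was higher. Of general transcription factor genes 5 of 27 were analysed, with 0 lower and 0 higher in either comparison with WT and median log2 ratios of 0.00 and -0.27. Of P-TEFb and cohesin genes, which act in the release of paused RNAPII and in holding DNA in loops, 3 of 7 were analysed, with 1 lower and 0 higher in each comparison with WT and median log2 ratios of -0.31 and -0.47. This list was trimmed after its values were seen and is given as a description. The 7 members had medians of -0.45 and -0.29, beside 0.13 and -0.24 over the TSSs above the median density. The 4 genes whose 3 promoter densities were most like the members' median (1.36, 1.01 and 1.08 in WT, CFAP20-KO and CFAP20/CCNC-dKO) by Euclidean distance of log2 values were SCN9A (distance 0.0978), MMP17 (0.123), EPHX3 (0.124) and GID4 (0.130), over 3 libraries.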

How the data were processed

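RNAPII ChIP-seq densities of 5 libraries were used. The submitters' processing notes list BWA 0.7.17, STAR 2.7.7a, HOMER 4.8.2, SAMtools 1.11, R 4.0.5, Trim Galore 0.6.5 and FastQC 0.11.9, with the builds hg38 and BDGP6 (spike-in); which tool made which file is not given in the sources used here. Libraries were read from both ends with 42 or 151 bp, per the labels' protocols, which do not say which library had which. The authors deposited spike-in normalised coverage (a signal) in 10-bp bins within 5 kb of TSSs and in 200-bp bins within 100 kb of origins, and a TSS table with WT BrU-seq values, a score whose scale is not given in the sources used here. 2 per-sample columns on other assays were left unused.

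Deposited values were whole multiples of a step of 0.0444 (WT), 0.181 (CFAP20-KO) and 0.110 (CFAP20/CCNC-dKO). Isolated islands of coverage were 145, 298 and 319 bp long, and 74.6%, 82.7% and 80.3% of them were 2 steps high. Coverage was therefore divided by step, length and 2 to give fragments. Ratio intervals are Clopper-Pearson 95% intervals and those of single densities exact Poisson intervals. Those of the promoter to gene body ratio are 95% normal approximations on the log scale, from the same fragments. All cover counting error only. Of these, only the Clopper-Pearson intervals were tested on simulated data, with whole counts where the fragments here are fractional. Ratios of the group are ratios of sums, without a pseudocount. The medians set beside them are of log2 ratios of single TSSs, with a pseudocount. No ratio of sums over all TSSs was computed. Counts past 1.5-fold used log2(density + 0.0410), 10% of the median promoter density, less the median of 4893 TSSs, and so understate changes of low promoters. 9787 of 9944 listed TSSs had values in all 3 libraries. Replicates were grouped by title. Alternatives were other windows, scalings, pseudocounts, thresholds and left-out libraries. Python 3.11.15, numpy 2.4.6, pandas 2.3.3 and scipy 1.17.1 were used with GENCODE 44. The named genes were the 7 members, at most 2 genes from each end of other lists, and the 4 genes most like the members. The P-TEFb and cohesin list is given without 1 gene, which is not reported here. The members and lists were chosen with earlier results of these data known.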

Additional observations from a re-analysis of the deposited data

How the results depend on the processing

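Of 90 recomputed values, 85 stayed within the counting interval of the value above (for counts, within 1.5 times, and for the WT replicates, within 1 SD) and 5 did not. The alternatives reuse the same libraries and the intervals are wide, so most values could be foreseen to stay within them. A change of sign inside an interval was counted as staying within it. A body window cut at the gene end is not counted, because every member reaches at least 5761 bp and its 3 values could not differ. The 5 were counts of members at least 1.5-fold lower. With a threshold of 2-fold the counts were 2 (CFAP20-KO against WT), 1 (CFAP20/CCNC-dKO against WT) and 0 (CFAP20/CCNC-dKO against CFAP20-KO). With a promoter window of -500 to 1000 bp they were 1 in CFAP20/CCNC-dKO against WT and 0 between the knockouts. The cause was not tested. Leaving out each WT replicate in turn gave a mean promoter over flank density between 2.70 and 3.50. Between the knockouts the promoter sum changed sign, within counting error, with the GENCODE start (0.01 on the log2 scale) and without MED21 (0.01), and with a body window of 1000 to 5000 bp so did the body sum (-0.07) and the promoter to gene body ratio (0.04). The body sum also changed sign without MED21 (-0.06) or MED7 (-0.05), and the ratio without MED21 (0.06). The GENCODE start, the left-out members and the listed origin centres were chosen after seeing the data. No paired analysis was possible because the groups share only replicate number 1. Depth limits all single genes in the knockouts, whose promoters hold 2.82 to 22.0 fragments.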
